A study of Homo sapiens with 28 samples.

Results

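The genes described here are 7 transcription factors that drive epithelial-mesenchymal transition (EMT), SNAI1, SNAI2, SNAI3, ZEB1, ZEB2, PRRX1 and FOXC2, and 3 factors that hold cells in the epithelial state, GRHL2, OVOL1 and OVOL2. They were taken by gene symbol, as a list drawn up with earlier results of these data known, and make up 10 of the 62703 rows of the RNA-seq count tables. All 10 symbols were found. The study asked what depends on TWIST1, a basic helix-loop-helix EMT factor, in metastatic colorectal cancer cells. It measured polyA RNA in 24 libraries of 2 colorectal cancer cell lines and TWIST1 binding by chromatin immunoprecipitation (ChIP-seq) in each line.

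MDST8, a line of the mesenchymal consensus molecular subtype CMS4, was given as unedited wild type (WT) and as 5 TWIST1 knockout clones named TG1_1, TG2_2, TG3_2, TG3_5 and TG3_6, with 3 libraries each. The clones came from single cells after electroporation of Cas9 with guide RNA against TWIST1, so each is 1 clone, and TG3_2, TG3_5 and TG3_6 share a name prefix. LoVo, a line outside the CMS4 subtype, was given as 3 shRNA control libraries and 3 TWIST1 shRNA libraries made by lentiviral transduction. The labels call the LoVo reference an shRNA control, whereas a legend of the study names wild-type LoVo cells in that comparison, so whether the reference carried a control hairpin is not settled here. The labels give the same growth medium for both lines. The labels do not say that the libraries of a group came from separate cultures, so the tests measure the spread between libraries, which may be technical.

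In EMT, epithelial cells give up cell-cell adhesion and take on migratory, mesenchymal features. The Snail proteins (SNAI1, SNAI2, SNAI3) are zinc finger proteins that bind E-boxes, and SNAI1 and SNAI2 repress adhesion genes such as CDH1. ZEB1 and ZEB2 are zinc finger and homeodomain repressors of the same genes. PRRX1 is a paired-related homeobox factor of mesenchyme, and FOXC2 a forkhead factor of mesenchyme and vessels. GRHL2 activates epithelial genes and represses ZEB1, while OVOL1 and OVOL2 are zinc finger repressors of ZEB1 and other mesenchymal genes.

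In hg38 (GENCODE), all 10 are protein-coding genes. SNAI1 lies at chr20:49982980-49988886 on the plus strand, SNAI2 at chr8:48917598-48921740 on the minus strand and SNAI3 at chr16:88677688-88686507 on the minus strand. ZEB1 lies at chr10:31318495-31529814 (plus), ZEB2 at chr2:144364364-144521057 (minus), PRRX1 at chr1:170662728-170739421 (plus) and FOXC2 at chr16:86566829-86569728 (plus). Among the antagonists, GRHL2 lies at chr8:101492439-101669726 (plus), OVOL1 at chr11:65787063-65797214 (plus) and OVOL2 at chr20:17956979-18059188 (minus).

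Library totals ran from 16567606 to 22217009 counts. Levels are given as CPM, read counts scaled to the size of the library with 1 set of factors for all 24 libraries. A change was called when the log2 fold change (log2FC) exceeded 0.58 in size with an adjusted p below 0.05 in edgeR. The TWIST1 counts in MDST8 were 797 to 1034 in WT and 553 to 1195 in the clones, and TG2_2 was called lower (log2FC -0.65, SE 0.07, adjusted p = 2.37e-09). In LoVo, the label TWIST1 shRNA goes with 73, 89 and 93 TWIST1 counts and the label shRNA control with 0 in each library, at least 25.9-fold more against a floor of 3 counts a library, so the counts go against the labels. Every LoVo direction given here follows the labels, so group names in LoVo stand for libraries labelled so. Of 7 colon epithelium markers, CDX1 was at 0 in all MDST8 groups and CDX2 in all but TG1_1, with summed levels of 63.0 to 134 CPM. The same markers summed to 7304 to 7578 CPM in LoVo shRNA control and 3770 to 4157 CPM in LoVo TWIST1 shRNA. Leukocyte markers summed to at most 0.350 CPM and endothelial markers to at most 1.45 CPM in any library.

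The 2 lines held nearly opposite sets of these factors. In MDST8 WT, scaled by exon length, SNAI2 was the highest driver at 42.5 CPM per kb, followed by ZEB1 at 5.42, PRRX1 at 3.39, ZEB2 at 3.14 and FOXC2 at 3.06 CPM per kb. The length is that of all annotated exons, 26151 bp for ZEB2 against 8650 bp for ZEB1 and 8248 bp for PRRX1. Without this scaling, ZEB2 (82.2 CPM) lay above ZEB1 (46.9 CPM) and PRRX1 (28.0 CPM), so this order and the shares of the summed level depend on the lengths. SNAI2 alone made up 73.4% ± 0.635 (SD, n = 3) of the summed driver level in CPM per kb. In LoVo shRNA control, SNAI1 took that place, at 11.6 CPM per kb and 76.9% ± 2.72 of the summed driver level, while SNAI2 made up 0.0375% ± 0.0650. The 3 antagonists, OVOL2 at 8.62, OVOL1 at 4.97 and GRHL2 at 4.32 CPM per kb, ranked just below SNAI1 in LoVo shRNA control. Summed over the 7 drivers, the level was 57.9 ± 0.657 CPM per kb in MDST8 WT and 15.1 ± 1.67 in LoVo shRNA control. Summed over the 3 antagonists, it was at most 0.0165 CPM per kb in the mean of any MDST8 group and 17.9 ± 0.682 in LoVo shRNA control.

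**Figure D1:**
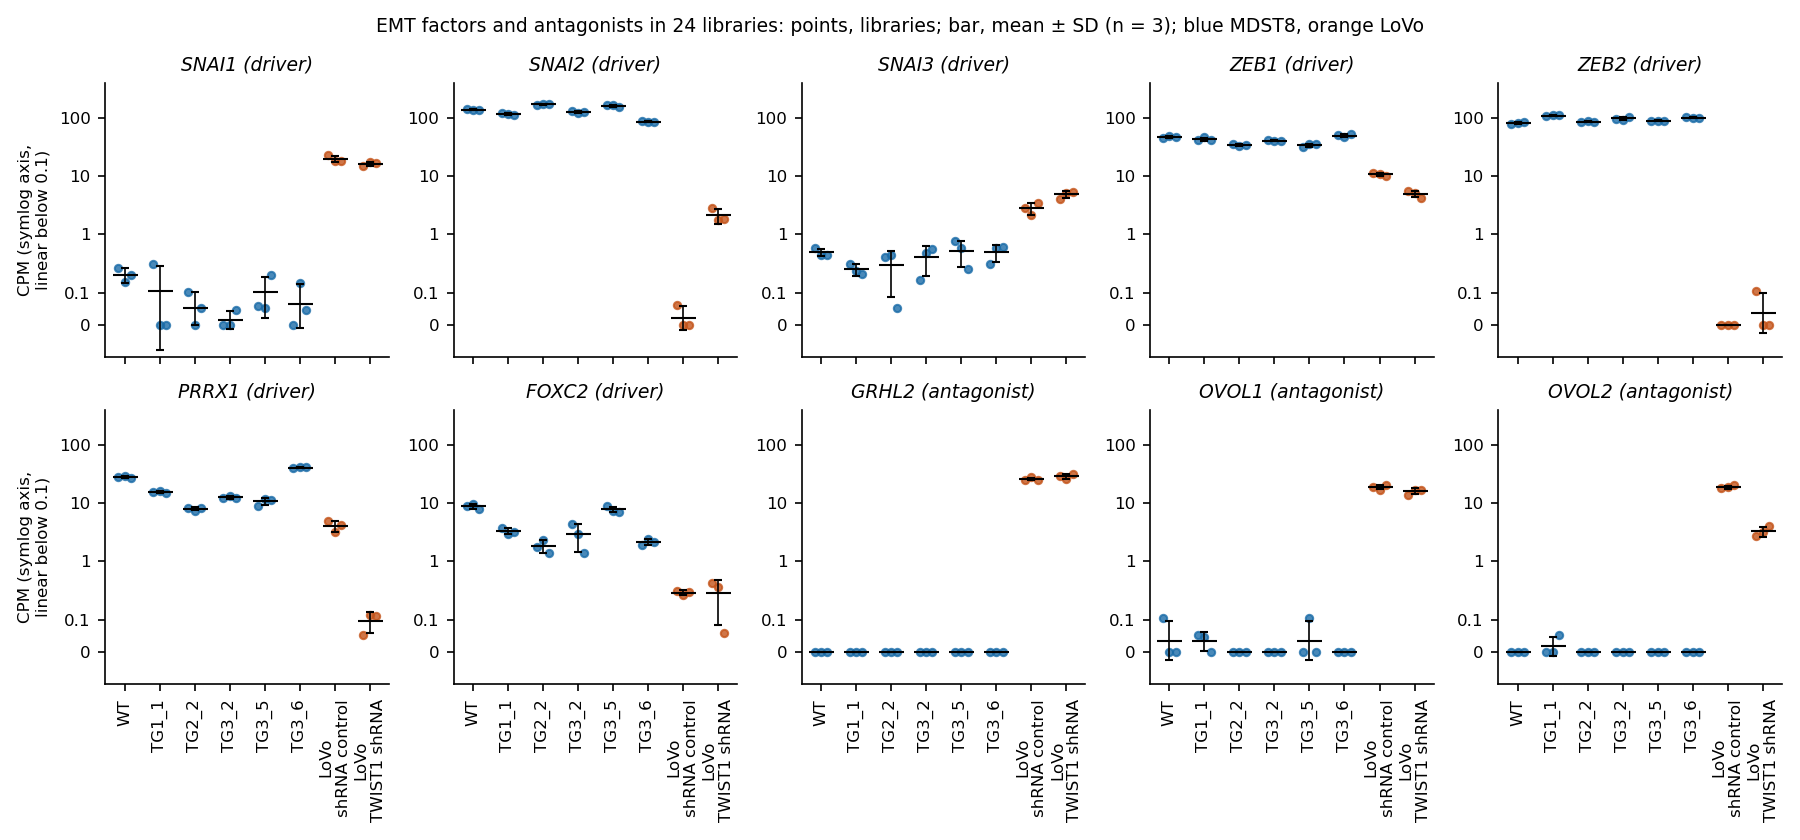
Level of each factor in CPM (y axis, logarithmic above 0.1 and linear below) in the 8 groups, with 1 point per library and bars for the mean ± SD (n = 3), MDST8 in blue and LoVo in orange. SNAI2, ZEB2, PRRX1 and FOXC2 were high in MDST8, and SNAI1, GRHL2, OVOL1 and OVOL2 were read almost only in LoVo.

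Among the Snail family, SNAI1 was read 5, 3 and 4 times in the 3 MDST8 WT libraries and 362, 358 and 308 times in LoVo shRNA control. The SNAI1 level in MDST8 WT was near the 3-count limit of 0.150 to 0.157 CPM, and its libraries did not overlap with LoVo shRNA control. SNAI1 passed the minimum level for testing through LoVo, so the direction was fixed in advance (log2FC of WT against LoVo shRNA control -6.57, SE 0.31, adjusted p = 8.49e-20). SNAI2 had 2697, 2783 and 2764 counts in MDST8 WT and 1, 0 and 0 in LoVo shRNA control. Its level in MDST8 WT was 7280-fold higher, with a 95% counting interval of 1306 to 287600 that covers counting error only. SNAI3, the least studied of the family, was low in both lines, at 0.492 CPM in MDST8 WT and 2.82 ± 0.641 CPM in LoVo shRNA control. SNAI3 was not tested between lines because its level was under the minimum, and its 5.70-fold higher level in LoVo had an exact two-sided permutation p of 0.1, the smallest that 3 against 3 libraries can give. SNAI3 shares 177 exon bases (10.2%) with its antisense gene SNAI3-AS1, and strand was not used in counting, so reads from the shared bases cannot be told apart.

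ZEB1, at 45.6, 48.3 and 46.7 CPM in MDST8 WT, was also read in LoVo shRNA control, at 11.4, 10.9 and 10.2 CPM, and did not overlap between them (log2FC 2.11, SE 0.08, adjusted p = 2.16e-23). ZEB2 had 1517, 1633 and 1710 counts in MDST8 WT and 0 in each LoVo shRNA control library, so its level was at least 436-fold higher in WT against 3 counts a library. Thus LoVo had 1 of the 2 ZEB transcripts, ZEB1 at a level 4.34-fold under that of MDST8 WT, and ZEB2 listed at 0. PRRX1, at 27.8, 29.3 and 26.7 CPM in WT, was at 4.96, 3.22 and 4.23 CPM in LoVo shRNA control (log2FC 2.76, SE 0.11, adjusted p = 6.01e-22). FOXC2, at 8.95, 9.69 and 7.999 CPM in WT, was at 0.314, 0.260 and 0.294 CPM in LoVo shRNA control (log2FC 4.91, SE 0.35, adjusted p = 7.32e-15). FOXC2 passed the minimum level through MDST8, so this direction was fixed in advance.

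All 3 antagonists were close to absent from MDST8. GRHL2 had 0 counts in each of the 18 MDST8 libraries and 402, 536 and 432 in LoVo shRNA control, which puts its level in MDST8 WT at least 167-fold lower. OVOL2 had 0 counts in each MDST8 WT library and 1 in a single TG1_1 library, against 287, 360 and 345 in LoVo shRNA control, at least 121-fold lower in WT. OVOL1 had 2, 0 and 0 counts in WT and 308, 331 and 344 in LoVo shRNA control, a level 557-fold lower in WT with a counting interval of 153.7 to 4603. Of the OVOL1 exon bases, 27.3% also lie in an antisense gene.

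Of 6 drivers tested between MDST8 WT and LoVo shRNA control, 5 were higher and SNAI1 was lower in WT. Both antagonists tested, GRHL2 and OVOL1, were lower in WT, while OVOL2 was under the minimum level of the fit to all 24 libraries. Only ZEB1 and PRRX1 passed the minimum level in each line. The other factors tested passed it through the line where they were high, so their direction was fixed in advance and only describes their levels. Among all 14185 genes tested, 34% were called higher and 30.6% lower. The plot of both lines sets the 10 factors beside the genes they are known to act on. All 19 epithelial targets tested were lower in MDST8 WT, with E-cadherin (CDH1) at 0 counts in WT and 280 CPM in LoVo shRNA control. Of the 20 listed, 6 passed the minimum level in the MDST8 libraries by themselves. The others tested passed it through LoVo, so their direction was fixed in advance. Of 14 mesenchymal genes tested, 13 were higher in WT and S100A4 was lower. The direction was likewise fixed for S100A4, which passed through LoVo, and for genes close to absent from LoVo, such as FAP.

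**Figure D2:**
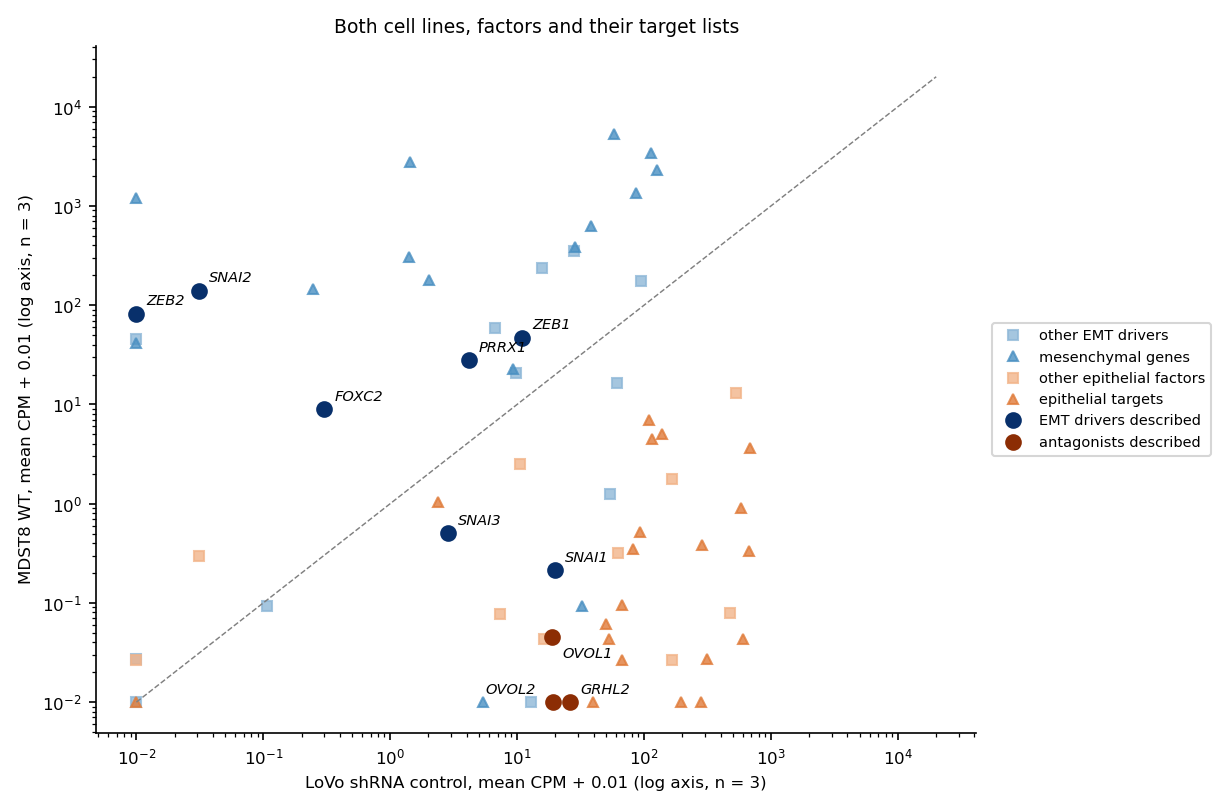
Mean level of each gene in LoVo shRNA control (x axis) and MDST8 WT (y axis), both as CPM + 0.01 on log axes with n = 3, with the line of equal levels dashed. SNAI2 and ZEB2 sit far above the line, and GRHL2, OVOL1 and OVOL2 lie at its lower right together with the epithelial targets.

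The ZEB transcripts are known targets of the miR-200 family, which pairs with them after the stop codon, and ZEB1 and ZEB2 in turn repress the family. The mature sequences from RefSeq (GRCh38) are shown with the seed, bases 2 to 8, in capitals, because they fall into 2 seed groups that match different sites.
hsa-miR-200b-3p: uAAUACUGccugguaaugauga
hsa-miR-200c-3p: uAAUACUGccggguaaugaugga
hsa-miR-429: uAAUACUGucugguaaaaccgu
hsa-miR-200a-3p: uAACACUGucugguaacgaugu
hsa-miR-141-3p: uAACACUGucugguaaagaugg
In the canonical ZEB1 transcript, the 2540 bases after the stop codon held 6 matches to the first seed and 3 to the second, and in ZEB2 the 5370 bases held 5 and 4. One site of each kind from each gene is printed with the seed match in capitals, at chr10:31527618-31527640 and chr10:31528031-31528053 on the plus strand for ZEB1, and at chr2:144389052-144389074 and chr2:144389236-144389258 on the minus strand for ZEB2.
ZEB1, first seed: attgttttatcttatCAGTATTa
ZEB1, second seed: caaaatcatcagaatCAGTGTTt
ZEB2, first seed: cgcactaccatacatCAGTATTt
ZEB2, second seed: tgcaaaaattttgtaCAGTGTTa
Mature miRNAs are not measured in polyA libraries. Their host transcript MIR200CHG, which carries hsa-miR-200c and hsa-miR-141, had 0 counts in all 18 MDST8 libraries, 19, 8 and 7 in LoVo shRNA control and 21, 30 and 30 in LoVo TWIST1 shRNA. It was chosen after its values were seen. The ZEB transcripts and the host transcript were thus read in opposite lines, apart from the ZEB1 level in LoVo.

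In the MDST8 clones, 3 drivers fell, PRRX1 in 4 of 5 clones, FOXC2 in 4 of 5 and SNAI2 in TG3_6, while ZEB1 and ZEB2 were called in no clone, each with a size under 0.58 in edgeR. The antagonists, SNAI1 and SNAI3 were too low to be tested. GRHL2 stayed at 0 in every clone, OVOL1 had at most 2 counts a clone library, SNAI1 at most 6 and SNAI3 at most 13. A count of 0 allows up to 3 counts, so a small change in these genes was not detectable at this depth.

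PRRX1 fell in 4 clones and was higher in the mean of the fifth. Against 27.8, 29.3 and 26.7 CPM in WT, its level was 15.4, 16.04 and 15.2 CPM in TG1_1, 8.22, 7.43 and 8.43 CPM in TG2_2, 12.2, 13.5 and 12.1 CPM in TG3_2, and 9.13, 11.7 and 11.3 CPM in TG3_5. In TG3_6, it was 39.9, 41.6 and 41.4 CPM. All libraries of the first 4 clones lay under every WT library, and all of TG3_6 lay over. The 4 decreases had log2FC of -0.85 (TG1_1), -1.81 (TG2_2), -1.15 (TG3_2) and -1.39 (TG3_5), each with SE 0.08 and adjusted p of 7.92e-12, 5.79e-19, 8e-15 and 1.77e-16. In TG3_6, the log2FC of 0.55 (SE 0.07, adjusted p = 9.27e-09) was under the size threshold. It passed this threshold without WT replicate B (0.60) and in the limma fit on unnormalized log counts (0.67). In that limma fit, the median of all genes in this clone was 0.13. No neighbouring groups overlapped in the order of the 8 groups, from TG3_6 over WT, TG1_1, TG3_2, TG3_5 and TG2_2 to LoVo shRNA control and LoVo TWIST1 shRNA.

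FOXC2, at 8.95, 9.69 and 7.999 CPM in WT, was at 3.77, 3.01 and 3.24 CPM in TG1_1 (log2FC -1.42, SE 0.20, adjusted p = 1.79e-07) and 1.79, 2.37 and 1.41 CPM in TG2_2 (-2.26, SE 0.22, 1.06e-10). It was at 4.402, 2.93 and 1.42 CPM in TG3_2 (-1.63, SE 0.20, 1.84e-08) and 1.88, 2.41 and 2.16 CPM in TG3_6 (-2.05, SE 0.21, 1.78e-10). In the order of these 4 clones neighbours overlapped, and all their libraries lay under WT. In TG3_5, FOXC2 was at 8.90, 7.49 and 7.20 CPM and overlapped WT (log2FC -0.19, SE 0.18, adjusted p = 0.377). PRRX1 and FOXC2 thus had different exceptions, TG3_6 for PRRX1 and TG3_5 for FOXC2, in clones that share the TG3 prefix. FOXC2 counts were low (27 to 194 a library in MDST8), and 8.0% of its exon bases also lie in FOXC2-AS1, which had at most 5 counts in any library.

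SNAI2, the most abundant driver per length in every MDST8 group, was at 141, 139 and 138 CPM in WT. TG3_6 was the lowest, at 88.5, 84.0 and 87.1 CPM (log2FC -0.69, SE 0.04, adjusted p = 7.04e-17), under all other MDST8 libraries. This value was under the size threshold in the limma fit on unnormalized log counts (-0.57), where the median of all genes in that clone was 0.13. TG2_2 was the highest, at 166, 172 and 176 CPM (0.28, adjusted p = 1.2e-07), followed by TG3_5 at 165, 164 and 153 CPM (0.20, 5.05e-05). TG1_1 (-0.25, 1.56e-06) and TG3_2 (-0.14, 0.00188) lay between WT and TG3_6. All 5 clones passed the p threshold, TG3_6 alone passed the size threshold, and no neighbouring groups overlapped. As a share of the summed driver level in CPM per kb, SNAI2 made up 62.8% in TG3_6 and 85.1% in TG2_2.

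ZEB1 was between 32.0 and 53.0 CPM in every MDST8 library. Its level in TG2_2 (34.6 ± 1.24 CPM, log2FC -0.45, SE 0.06, adjusted p = 4.66e-08) and TG3_5 (34.4 ± 2.07 CPM, -0.46, SE 0.06, 3.37e-08) lay under all WT libraries (46.9 ± 1.35 CPM) without reaching the size threshold. The value in TG3_2 was -0.21 (adjusted p = 0.00179), and TG1_1 (-0.11, 0.0818) and TG3_6 (0.09, 0.133) overlapped WT. ZEB2 was at 82.2 ± 3.08 CPM in WT and higher in the mean of each clone, up to 110 ± 3.49 CPM in TG1_1 (0.42, SE 0.04, adjusted p = 4.12e-10). ZEB2 values were 0.29 in TG3_6 (7.69e-07), 0.25 in TG3_2 (9.78e-06), 0.12 in TG3_5 (0.0192) and 0.06 in TG2_2 (0.257), all under the size threshold. The 2 ZEB genes therefore had log2FC of opposite sign in 4 of the 5 clones, with sizes that were not called.

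**Figure D3:**
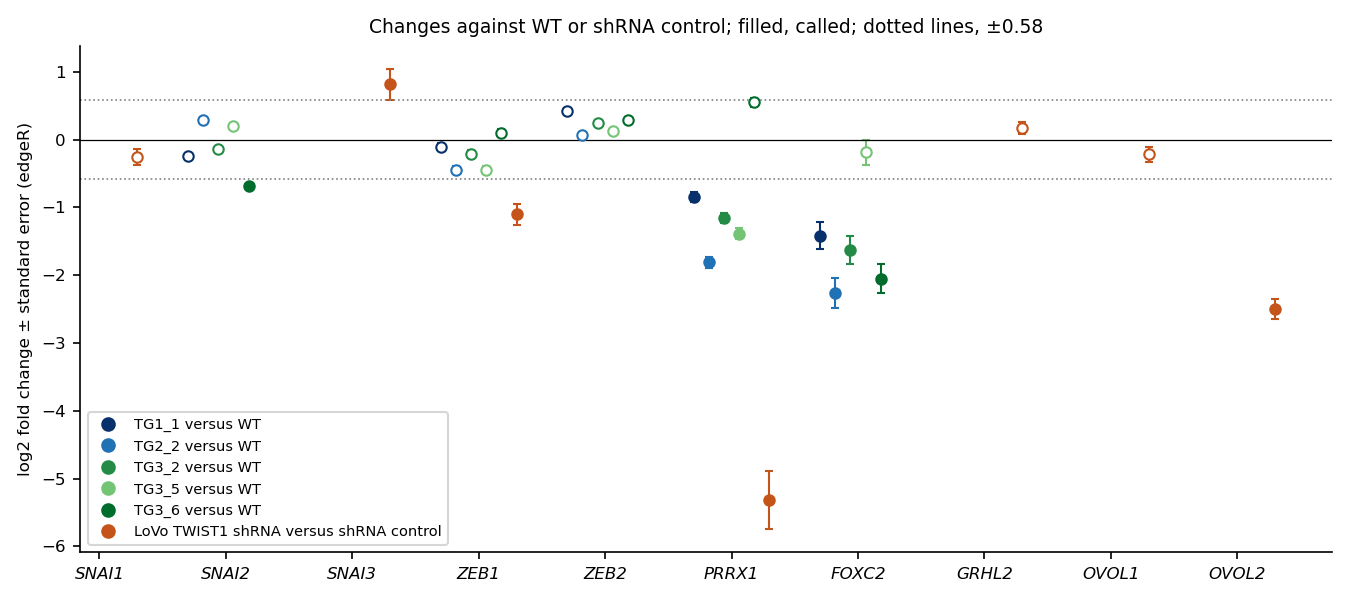
Log2 fold change ± SE (edgeR) of each tested factor in the 5 MDST8 clones against WT and in LoVo TWIST1 shRNA against shRNA control. Filled points were called and the dotted lines mark the size threshold of 0.58, so that PRRX1 and FOXC2 stand out below it in 4 clones each and PRRX1 is lowest in LoVo at -5.32.

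Of the 5 drivers tested, 2 were called lower in TG1_1, beside 7.49% lower and 12% higher among all 13706 genes in the fit. In TG2_2, 2 were called lower (background 6.64% lower, 8.05% higher), and in TG3_2, 2 were called lower (6.09% lower, 10.9% higher). In TG3_5, 1 was called lower (7.25% lower, 11.2% higher), and in TG3_6, 2 were called lower (11.7% lower, 15.3% higher). The median log2FC of all genes lay between -0.0144 and 0.0028 in the 5 clones. These 5 comparisons share the WT libraries.

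The clones also differed from each other. All 5 drivers passed the F test among the 5 clones, which 81% of all genes tested passed too, with adjusted p of 7.74e-24 for PRRX1, 1.09e-20 for SNAI2, 1.72e-10 for ZEB1, 4.26e-10 for FOXC2 and 4.25e-08 for ZEB2. Of the 10 pairs of clones, 7 were called for FOXC2, 6 for PRRX1 and 2 for SNAI2. For ZEB1 and ZEB2, 8 pairs each had an adjusted p below 0.05 and all differences were under the size threshold. PRRX1 was higher in TG3_6 than in TG3_2 by 1.70 and than in TG3_5 by 1.93 on the log2 scale (adjusted p = 2.56e-19 and 6.99e-21), within clones of 1 prefix. FOXC2 was higher in TG3_5 than in TG3_2 by 1.44 and than in TG3_6 by 1.86 (6.63e-07 and 4.55e-09).

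Summed fibroblast markers moved between clones as well, from 311.3 to 338.3 CPM in TG3_6 over 614.7 to 626.4 CPM in WT to 1142 to 1303 CPM in TG1_1. Nearly all of the sum was COL1A1 (599 CPM in WT, 308 CPM in TG3_6), while PDGFRB was at 1.59 CPM in WT and 3.98 CPM in TG3_6 and DCN at 0.811 and 0.278 CPM. TG3_6, with the highest PRRX1, had the lowest sum, but TG2_2, with the lowest PRRX1, had a sum of 582.2 to 621.3 CPM, which overlapped WT. The part of these markers in the PRRX1 differences was not tested. In bulk RNA, fewer cells with a transcript and less transcript per cell cannot be told apart.

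Across the 18 MDST8 libraries, which are 6 groups of 3, the level of ZEB1 ran with that of PRRX1 (Pearson r = 0.919) and against that of SNAI2 (r = -0.816), as a description of 6 groups. Among 11930 protein-coding genes, the patterns most like PRRX1 were those of IDH2 (r = 0.969), XBP1 (0.962) and ADGRA2 (0.954). Those most like SNAI2 were PAPPA (0.980), VDR (0.978) and NOL6 (0.976). For ZEB1 they were CHMP7 (0.957), PRDM11 (0.940) and ARHGAP24 (0.939), for ZEB2 ZNF217 (0.942), TSC22D1 (0.933) and LONRF3 (0.932), and for FOXC2 FAM83G (0.936), EIF3F (0.908) and EHMT2 (0.906).

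In LoVo, the libraries labelled TWIST1 shRNA had lower PRRX1, ZEB1 and OVOL2 and higher SNAI3 than those labelled shRNA control, so that 2 drivers and 1 antagonist fell and 1 driver rose. PRRX1 had 79, 62 and 72 counts in shRNA control and 1, 2 and 2 in TWIST1 shRNA, about 43-fold lower (log2FC -5.32, SE 0.43, adjusted p = 6.88e-09). It passed the minimum level in LoVo through shRNA control, which favours a decrease. Its TWIST1 shRNA counts lay under the floor of 3, so the size of the fold is uncertain. ZEB1 went from 11.4, 10.9 and 10.2 CPM to 5.49, 5.18 and 4.24 CPM (-1.10, SE 0.15, 5.71e-06). OVOL2 went from 18.02, 18.7 and 20.3 CPM to 2.74, 3.19 and 4.01 CPM (-2.50, SE 0.15, 1.19e-10). None of these 3 overlapped between the groups.

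SNAI3 went from 2.83, 2.18 and 3.46 CPM to 4.09, 5.18 and 5.45 CPM (0.82, SE 0.23, adjusted p = 0.00427), without overlap. Its antisense gene SNAI3-AS1, with which it shares exon bases, had 11, 15 and 15 counts in shRNA control and 58, 50 and 41 in TWIST1 shRNA. SNAI2 had 1, 0 and 0 counts in shRNA control and 53, 29 and 32 in TWIST1 shRNA, a ratio of 113 with a 95% counting interval of 19.9 to 4505. SNAI2 was too low in LoVo for the fit, and the exact two-sided permutation p of its groups was 0.1, the smallest possible. With it, SNAI2 made up 4.82% ± 1.73 (SD, n = 3) of the summed driver level in TWIST1 shRNA, and SNAI1 still made up 69.7% ± 1.06.

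The other factors moved less. SNAI1 was at 22.7, 18.6 and 18.1 CPM in shRNA control and 14.9, 17.4 and 16.9 CPM in TWIST1 shRNA, lower in each library but under the size threshold (-0.26, SE 0.11, adjusted p = 0.0464). GRHL2 (0.17, SE 0.09, 0.0885) and OVOL1 (-0.22, SE 0.11, 0.0863) did not pass the test. FOXC2 had 5, 5 and 5 counts against 8, 6 and 1, and ZEB2 0, 0 and 0 against 2, 0 and 0, neither of which could be tested. Of 7 factors tested, 1 was called higher and 3 lower, against 26.6% and 26.1% of the 14270 genes tested. The 7 of 7 colon epithelium markers were called lower in the same comparison, among them VIL1 (-4.28), KRT20 (-4.25), CDX2 (-3.04) and CDX1 (-2.80), and their part in the changes of OVOL2 and the other factors was not tested.

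ZEB1 and PRRX1 could be tested in both lines, PRRX1 in LoVo through its level in shRNA control. The change in LoVo was lower than the mean change of the 5 clones by -0.90 for ZEB1 (SE 0.12, adjusted p = 2.52e-08) and by -4.41 for PRRX1 (SE 0.37, adjusted p = 1.27e-12) in the interaction term, which 73.6% of all genes passed. The lines also differ in how TWIST1 was targeted and in its counts, which cannot be told apart from the line.

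Other genes of the program were described by lists that do not include the 10 factors. Of 12 other EMT drivers, 7 were tested in MDST8, with 1 to 2 called higher and 1 lower in each clone. Among all genes tested, 8.05% to 15.3% were called higher and 6.09% to 11.7% lower in a clone. SOX4, a mesenchymal and progenitor factor, rose in all 5 clones, from 174 CPM in WT to between 302 and 627 CPM (log2FC 0.78 to 1.84), and HMGA2 rose in 4 clones. In LoVo, 5 of 9 were called higher and 3 lower, beside 26.6% and 26.1% of all genes. TCF4, an E-protein partner of TWIST1, was at -7.97, HMGA2 at 2.504 and ETS1 at 2.08. TCF4 passed the minimum level in LoVo through shRNA control (97 to 141 counts a library), which favours a decrease. Its 0 to 1 counts in TWIST1 shRNA lay under the floor of 3, so the size of the fold is uncertain. Of 10 other epithelial factors, 3 could be tested in MDST8, KLF5, GRHL1 and KLF4, each called lower in 2 clones. In LoVo, 1 of 8 was called higher and 4 lower, beside the same shares of all genes. ESRP1, an epithelial splicing factor, rose from 16.2 to 401 CPM (4.65), while GRHL3 (-1.71), ELF3 (-1.55) and KLF5 (-0.84) were among those that fell.

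Of 20 epithelial targets, 14 were too low to be tested in MDST8. Of the 6 tested, 4, 2, 4, 5 and 6 were called higher in TG1_1, TG2_2, TG3_2, TG3_5 and TG3_6, beside 12%, 8.05%, 10.9%, 11.2% and 15.3% of all genes, with medians of 1.10, 0.18, 1.03, 1.44 and 1.55 beside medians of all genes near 0. The mucin MUC1 rose in 5 clones and the desmosome protein DSP in 4, the latter from 3.64 CPM in WT to at most 31.5 CPM in TG3_5, against 688 CPM in LoVo shRNA control. P-cadherin (CDH3) was called higher in 3 clones, up to 4.88 in TG3_5 (0.508 CPM in WT, 15.3 CPM in TG3_5). It was called lower in TG1_1 (-3.70), at 0 to 2 counts a library against 9 to 11 in WT. CDH3, 1 of the 6 targets tested, lay under the minimum level in WT and passed it through the clones where it was high. Its calls were thus partly set by the filter. E-cadherin (CDH1) had at most 1 count in any MDST8 library. In LoVo, 3 of 20 targets were called higher and 10 lower (26.6% and 26.1% of all genes), with a median of -0.64 and CLDN4 (-1.56), DSP (-1.38) and MARVELD3 (-1.30) among those that fell. CDH1 was at 193 CPM in TWIST1 shRNA (-0.52), under the size threshold.

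Of 15 mesenchymal genes, 13 were tested in MDST8, and 3 to 5 rose and at most 1 fell in each clone, with medians of 0.33 to 0.46. Among all genes tested, 8.05% to 15.3% were called higher and 6.09% to 11.7% lower in a clone. The matrix protein TNC rose in 5 clones and the collagen crosslinker LOX in 4, while the fibroblast protease FAP fell in 3. In LoVo, 7 of 12 fell, among them SPARC (-4.94), CDH11 (-4.91) and TGFBI (-4.27), and 3 rose. Beside them, 26.1% of all genes were called lower and 26.6% higher. CDH11 passed the minimum level in LoVo through shRNA control (77 to 112 counts a library, 1 to 7 in TWIST1 shRNA), which favours a decrease. Of 20 corepressors and protein-stability regulators of these factors, all tested in MDST8, at most 1 was called in each direction in any clone. Of 19 tested in LoVo, CSNK2A1 (1.22) and GSK3B (0.68) rose and AJUBA (-1.54) and ATM (-0.63) fell, beside the same LoVo shares of all genes.

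**Figure D4:**
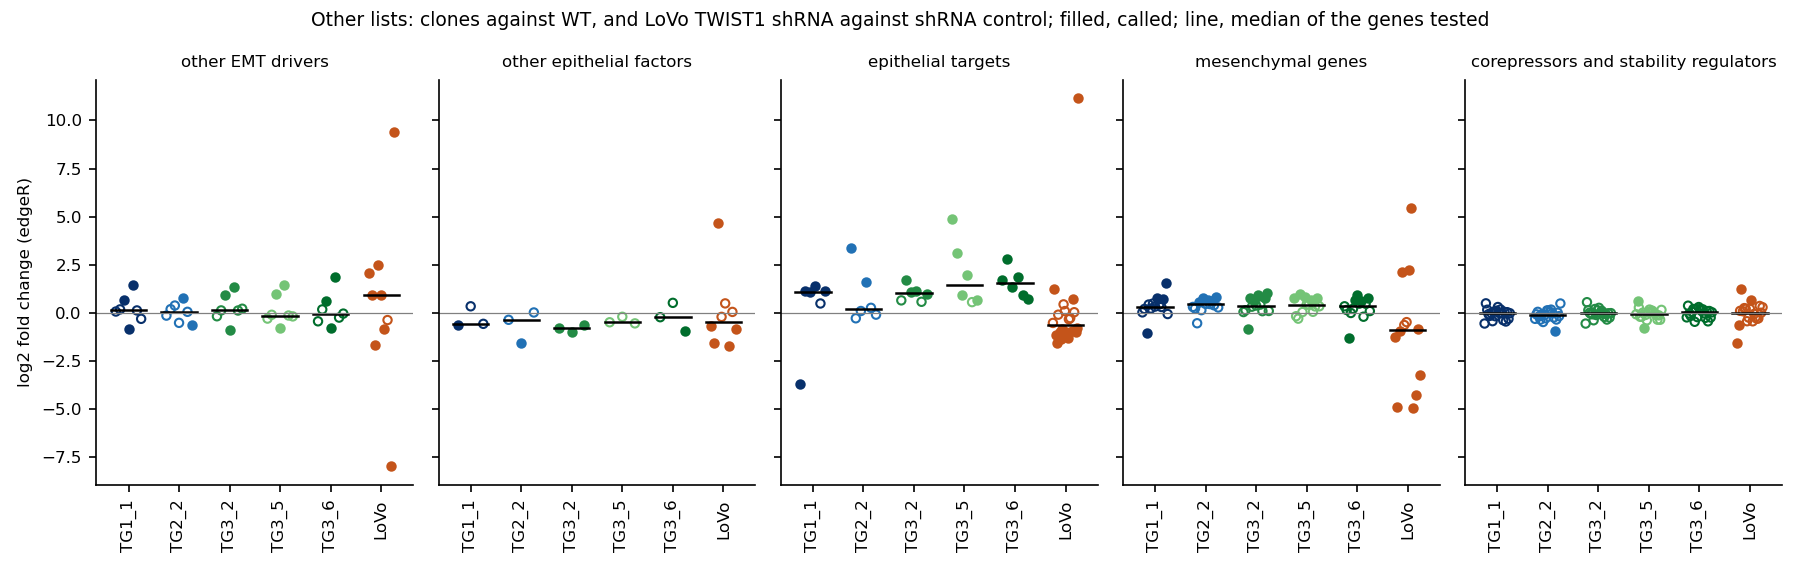
Log2 fold change (edgeR) of each tested gene of 5 lists in the 5 clones against WT and in LoVo TWIST1 shRNA against shRNA control, with called genes filled and the median of each list as a line. The median of the epithelial targets tested lies above 0 in each clone (0.18 to 1.55, 6 genes) and below 0 in LoVo (-0.64, 20 genes), and corepressors stay near 0.

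TWIST1 binding was described from the 2 peak lists, 338877 peaks in MDST8 and 333621 in LoVo, each from 1 ChIP library, without replicates, that the authors called at a p-value of 0.05. At a q-value of 0.05, 1075 MDST8 peaks (0.317%) and 1550 LoVo peaks (0.465%) were left. A peak within 3000 bp of the 5′ end of the annotated gene was listed for 9 of the 10 factors in MDST8, all but OVOL1, where 63.1% of 62639 genes and 70.9% of 20026 protein-coding genes had one. In LoVo it was listed for 8 of 10, all but SNAI2 and GRHL2, beside 55.7% of all genes and 57.3% of protein-coding genes. ChIP was made in wild-type cells of each line, and LoVo had 0 TWIST1 counts in all shRNA control libraries.

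None of these promoter peaks reached a q-value of 0.05. The strongest in MDST8 was at OVOL2, with its summit 563 bp into the gene, a fold enrichment of 3.75 over input and q = 0.129, stronger by p-value than 99.0% of the list. It overlapped a LoVo peak with a fold of 2.45, and both summits lie before the start of the canonical OVOL2 transcript, within the gene as annotated from its longest form. The next was at ZEB1, 1821 bp into the gene in an intron (fold 3.35, q = 0.279). SNAI2 had its summit 56 bp into the gene (fold 2.82, q = 0.548) and SNAI1 699 bp before it (fold 2.81, q = 0.567). Peaks at PRRX1 (fold 2.68), FOXC2 (2.74), GRHL2 (2.74) and ZEB2 (2.53) were nearer to the median fold of all MDST8 peaks, 2.29. Both SNAI3 peaks in MDST8 also lay under that median, at a fold of 1.74, stronger by p-value than 1.4% of the list. In LoVo, the strongest were at SNAI3, 161 bp into the gene in coding exon sequence (fold 3.13, q = 0.348), and ZEB1, 2500 bp into the gene in an intron (fold 3.01, q = 0.426).

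**Figure D5:**
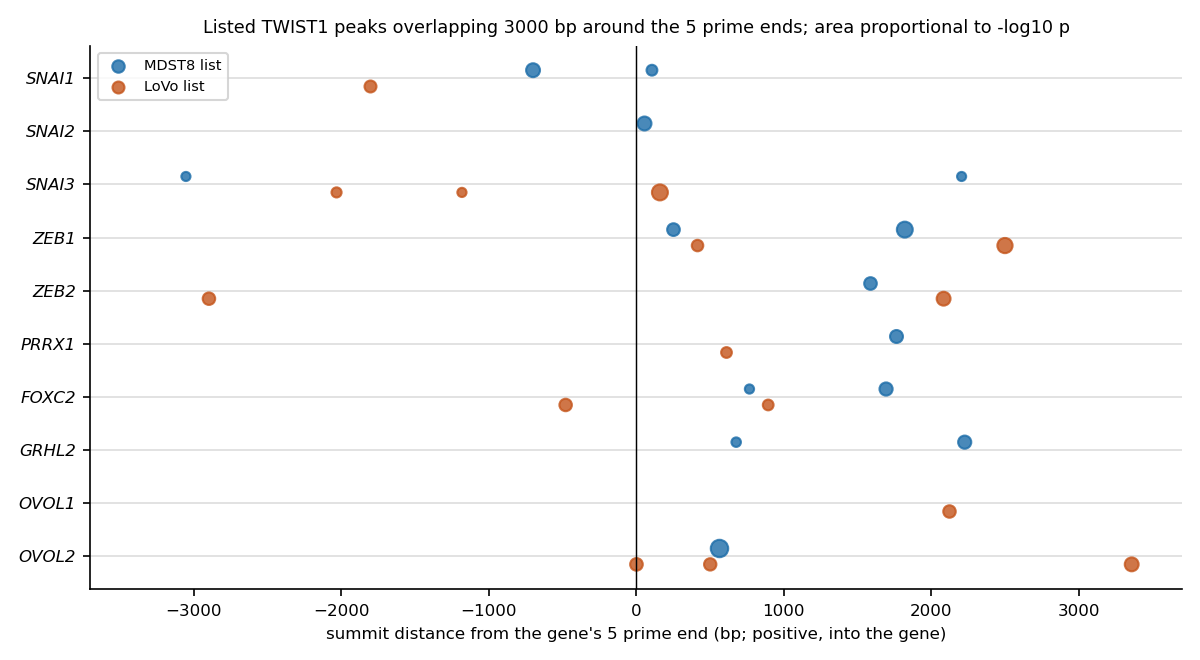
Summits of listed TWIST1 peaks that overlap the 3000 bp on either side of the 5′ end of each factor, by distance in bp (x axis, positive into the gene), with the point area proportional to −log10 p. The largest point is OVOL2 in MDST8 at 563 bp, and OVOL1 in MDST8 and SNAI2 and GRHL2 in LoVo have none.

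Within the genes and 50000 bp on either side, factor loci held 7.39 to 19.8 peaks per 100 kb in MDST8 and 9.72 to 19.97 in LoVo, around the medians of all genes of 13.9 and 12.5. Peaks that reached a q-value of 0.05 lay only in LoVo among these loci. They were at ZEB1, 11885 bp into the gene (fold 5.10, q = 0.00147), and at OVOL2, 76803 bp into the gene (fold 4.21, q = 0.00817). Another was at SNAI1, 47427 bp past the 5′ end (q = 0.043). The whole lists held 1550 such peaks in LoVo and 1075 in MDST8. The share of all genes with such a peak in the same span was not counted, so this only describes these loci. The best MDST8 peak of the loci was at ZEB2, 71641 bp into the gene (fold 3.802, q = 0.0911).

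TWIST1 and the Snail and ZEB factors bind E-boxes, CANNTG, and TWIST1 is known for a preference for CATCTG. The 101 bases around a summit held CANNTG in 45.1% of MDST8 peaks and 44.9% of LoVo peaks, and CATCTG on either strand, a part of the first count, in 7.46% and 7.37%. The promoter peak summits of PRRX1 and FOXC2, the drivers called in 4 clones each, and the MDST8 summits of OVOL2 and ZEB1, the strongest there, are printed in hg38 on the plus strand, with any CANNTG in capitals.
OVOL2, MDST8, chr20:18058575-18058675: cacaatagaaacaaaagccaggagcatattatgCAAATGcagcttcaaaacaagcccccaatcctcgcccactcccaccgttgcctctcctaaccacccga
ZEB1, MDST8, chr10:31320266-31320366: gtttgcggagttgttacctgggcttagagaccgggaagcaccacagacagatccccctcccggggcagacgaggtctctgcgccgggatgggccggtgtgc
PRRX1, MDST8, chr1:170664439-170664539: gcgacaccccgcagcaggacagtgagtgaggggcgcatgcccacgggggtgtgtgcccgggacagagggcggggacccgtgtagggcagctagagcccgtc
PRRX1, LoVo, chr1:170663284-170663384: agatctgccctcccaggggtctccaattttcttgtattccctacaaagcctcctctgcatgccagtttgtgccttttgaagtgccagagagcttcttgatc
FOXC2, MDST8, chr16:86568473-86568573: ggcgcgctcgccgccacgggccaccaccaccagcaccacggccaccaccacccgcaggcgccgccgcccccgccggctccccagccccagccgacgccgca
FOXC2, LoVo, chr16:86566301-86566401: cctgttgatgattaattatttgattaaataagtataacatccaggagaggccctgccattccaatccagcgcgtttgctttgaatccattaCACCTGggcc
The OVOL2 window in MDST8 held 1 CANNTG, the FOXC2 window in LoVo held 1, and the ZEB1, PRRX1 and MDST8 FOXC2 windows held none. CATCTG was not among the letters of any window at a promoter summit of the factors.

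RefSeq promoters, 250 bases before to 50 bases after a transcript start, were at hand for 3 of the factors, ZEB1 with 7, ZEB2 and PRRX1. CANNTG was in 68.7% of all 35116 promoters and CATCTG in 14.7%. The first ZEB1 promoter, chr10:31318167-31318466 on the plus strand, is printed because it alone among them holds CATCTG, with 2 CANNTG in capitals.
ZEB1 promoter: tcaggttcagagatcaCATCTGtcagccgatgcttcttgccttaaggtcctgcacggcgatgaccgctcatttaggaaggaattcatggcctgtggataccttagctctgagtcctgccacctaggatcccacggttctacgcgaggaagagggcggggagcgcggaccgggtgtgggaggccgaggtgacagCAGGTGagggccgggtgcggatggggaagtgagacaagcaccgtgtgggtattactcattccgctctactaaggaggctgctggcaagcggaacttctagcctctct
The PRRX1 promoter, chr1:170663881-170664180 on the plus strand, is printed because PRRX1 was called in 4 clones and in LoVo, and it holds no CANNTG.
PRRX1 promoter: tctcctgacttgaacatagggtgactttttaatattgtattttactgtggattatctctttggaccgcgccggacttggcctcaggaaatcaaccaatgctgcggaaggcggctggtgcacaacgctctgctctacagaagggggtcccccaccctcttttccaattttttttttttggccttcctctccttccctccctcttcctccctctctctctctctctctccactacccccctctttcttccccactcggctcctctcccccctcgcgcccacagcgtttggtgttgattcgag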

How the data were processed

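PolyA RNA was sequenced from 24 libraries in 8 groups of 3, and TWIST1 ChIP from 1 library a line. Per the study's methods and the submitters' processing notes, the authors trimmed reads with Trim Galore 0.6.6, aligned RNA with HISAT2 2.1.0 to hg38 and counted genes of GENCODE 43 with featureCounts 2.0.0 without the strand option, and the deposited values are raw read counts. ChIP reads were aligned with Bowtie2 2.4.5, handled with SAMtools 1.6, and MACS2 2.2.7.1 called peaks at p 0.05. The deposited peak lists hold a display score, a fold enrichment (a ratio over input), −log10 p-values and −log10 q-values and a summit offset in bases.

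Gene IDs were named from GENCODE 44 (62686 of 62703 matched), and the 10 members and all lists were chosen with earlier results of these data known. edgeR 4.0.16 (TMM, quasi-likelihood, Benjamini-Hochberg) was fitted to the 18 MDST8 libraries, to the 6 LoVo libraries, and to all 24 for comparisons of lines, over genes whose geometric mean of RPM + 1, minus 1, was at least 1. Called means a log2 fold change over 0.58 in size and an adjusted p under 0.05. Named genes of other lists were those called in most clones, then by mean size, and by size in LoVo. Likeness used log2(CPM + 0.5) and named 3 genes a member. Permutation tests were exact and two-sided. Floors are 3 counts, and intervals are exact 95% intervals that cover counting error only. No 2 libraries of a group agreed within sampling noise. LoVo TWIST1 shRNA replicate 1 lay farthest from its partners, with a chi-square per degree of freedom of 18.6 and 28.4 against at most 5.51 in other pairs. The test was checked on simulated data. Alternatives were DESeq2 1.42.0, limma 3.58.1 on log2(count + 1), other normalization, filters and samples, a replicate block, each library left out, other peak windows (1000 and 5000 bp) and stricter peak thresholds (p 0.001, q 0.05). Python 3.11.15 and R 4.3.3 were used. A few genes of the lists and 1 sequence are not reported here.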

Additional observations from a re-analysis of the deposited data

Results flagged for a closer look

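The effect in LoVo differed from the mean effect of the 5 MDST8 clones by -0.90 on the log2 scale for ZEB1 (SE 0.12, adjusted p = 2.52e-08) and by -4.41 for PRRX1 (SE 0.37, adjusted p = 1.27e-12), both by the interaction term. PRRX1 had 1 to 2 counts a library in LoVo TWIST1 shRNA. Clones of the same knockout differed from each other by direct tests, and the largest difference of each driver called in any pair was 0.98 for SNAI2 between TG2_2 and TG3_6 (higher in TG2_2), -2.36 for PRRX1 between the same clones (lower in TG2_2) and -2.07 for FOXC2 between TG2_2 and TG3_5 (lower in TG2_2). SNAI2 and PRRX1 were thus at opposite ends in TG2_2 and TG3_6.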

How the results depend on the processing

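Counts of called factors in each clone, in LoVo, between lines and among clones stayed within 1.5 times their value under every alternative run (136 of 141 values kept, counts of peaks included). The other 5 were counts of factors with a promoter peak. In MDST8, 9 fell to 4 at a p-value of 0.001 and to 0 at a q-value of 0.05. In LoVo, 8 fell to 5 within 1000 bp, to 4 at a p-value of 0.001 and to 0 at a q-value of 0.05. Among 693 values of single factors, 663 kept direction and call, 20 lost the call, 8 gained it and 2 changed sign. SNAI2 in TG3_6 lost its call in limma and PRRX1 in TG3_6 gained one in limma and without WT replicate B, as given in the report. The other calls lost or gained were differences of effect between lines (the interaction term) of SNAI1 and FOXC2, which the report does not use. The sign changes were differences of effect between lines of factors near 0 in one line, OVOL1 (-1.30 without MDST8 WT replicate A, otherwise up to 1.88 with a library left out) and ZEB2 (-0.24 without LoVo TWIST1 shRNA replicate 1, otherwise up to 3.08), which the report does not use. The limma fit without normalization moved the median of all genes to 0.13 in TG3_6 and 0.26 between lines.

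The library letters A, B and C recur in the MDST8 groups. Same-letter deviations correlated at -0.106 to 0.120, above 0.1 in 1 of 15 pairs, and 4 of 15 libraries correlated best with their own letter, so the letters were not taken as pairs. With the replicate block, 2, 2, 2, 1 and 2 factors were called in the 5 clones and 5 differed among clones, as without it. No paired analysis was possible in LoVo because its groups share no replicate numbers. Depth limits SNAI1, SNAI3 and the antagonists in MDST8 and SNAI2, ZEB2 and FOXC2 in LoVo, which were read too rarely to be tested.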
